A study of Mus musculus with 11 samples.

Results

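The phase I detoxification enzymes measured here are the genes on the array named as cytochrome P450 (Cyp), flavin monooxygenase (Fmo), carboxylesterase (Ces), paraoxonase (Pon) or epoxide hydrolase (Ephx). They were chosen by the array's own gene names. They make up 178 of 59305 spots, 151 of 55681 probes and 118 of 36413 gene names. Signal was detected for 54 of the 151 probes and 47 of the 118 genes, and these 47 genes were compared between the groups.

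RNA came from the descending aorta of male C57BL/6 mice aged 20 months, and 1 Cy3-labelled array was run per mouse. The 5 nitrate treated mice drank water with 1 g/L sodium nitrate for 8 weeks. The 6 control mice had the same strain, sex and age, and their labels refer to earlier samples and name no added salt, whereas the study's methods give sodium chloride at an equal concentration. The whole vessel wall was extracted after removal of the fat around it, so the values are averages over its cell types. The study's methods describe more nitrate replicates than the 5 arrays analysed here. The question was whether dietary nitrate alters the expression of these enzymes in the old aorta.

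Phase I enzymes make the first change to a foreign or fatty molecule, usually by adding or exposing an oxygen group that later enzymes conjugate. P450 and flavin monooxygenases oxidize with molecular oxygen and NADPH, whereas carboxylesterases, paraoxonases and epoxide hydrolases add water. Outside the liver, several of them act mainly on the body's own lipids. In blood vessels, P450 enzymes of the Cyp2c and Cyp2j families form epoxides of arachidonic acid that relax smooth muscle, Cyp4 enzymes form the constrictor 20-HETE, and soluble epoxide hydrolase (Ephx2) breaks the epoxides down.

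Of the 47 detected genes, 6 met the call rule stated in the study's methods, an unadjusted limma P value under 0.05 with a fold change above 1.2. Ephx1 was called higher with nitrate, and Ces1d, Cyp2j13 and Fmo1 were called lower. The other 2, Ephx4 (higher) and Cyp2j7 (lower), were detected in enough mice of only the group in which they were higher. The detection rule thus favoured their difference, and they are described below by their levels, with nothing drawn from their P values. Over all 18273 detected genes the same rule called 8.89% (4.27% higher and 4.62% lower). Counted by probe, 3 of 54 were called higher and 5 lower, against 4.16% and 4.85% of all detected probes (9.00% in both directions). The median difference of the 47 genes was -0.10 on the log2 scale and 30 of them had a negative difference, beside a median of 0.02 and 45.4% negative over all detected genes. After Benjamini-Hochberg adjustment over the 23633 detected probes no phase I gene passed 0.05, and only 3 probes of the whole array did (0.0127%). At an unadjusted limma P value under 0.05 without a limit on the fold change, 12 of the 47 genes passed, against 14.5% of all detected genes. The 2 groups did not overlap in 5 of the 47 genes, against 2.94% of all detected genes. In all, 1 gene passed the detection rule through the nitrate treated mice alone and 7 through the controls alone, 4 of them with a negative difference, and these 8 enter the counts above. The rule asked for all 5 nitrate treated mice but for only 5 of the 6 controls. It was thus easier to pass through the controls, and the split of these 8 genes is no result about expression. The counts were therefore repeated over the 37 genes whose probe was detected on all 11 arrays. Of these 4 were called (Ephx1, Ces1d, Cyp2j13 and Fmo1), against 8.29% of the 15132 such genes on the array. Their median difference was -0.16 and 26 of the 37 were negative, beside a median of 0.02 and 44.9% negative over all such genes. The groups did not overlap in 4 of the 37, against 3.19%.

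The signal of each gene that met the rule comes from a probe of 60 bases. The 30 bases at the 5′ end of each are shown to identify the transcript that was measured, since the older names on the array can be ambiguous. No letters are capitalized. The files place these probes in mouse genome build mm9, Ephx4 at chr5:107858892-107858951 on the plus strand, and on the minus strand Ephx1 at chr1:182919689-182919748, Fmo1 at chr1:164760037-164760096, Ces1d at chr8:95693648-95694933, Cyp2j13 at chr4:95712305-95723288 and Cyp2j7 at chr4:95861914-95861973. The intervals of Ces1d and Cyp2j13 are longer than the probe, as for a probe that spans a splice junction. An annotation of mm9 was not used here, so exon and UTR positions are not given.
Ephx4: agaaacaaggagagactgactttatctcct
Ephx1: tcgccccactgcatagctgtgttaagctac
Fmo1: gatctaactggcttttcaaatgtatggagt
Ces1d: ctccatttttaaaagatggtgcctcagaag
Cyp2j13: atgggcagtttaagaagagagaatcttttc
Cyp2j7: ttaatgaaaagctgagcctgaagttcagaa

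The files use older names for some enzymes, and 145 of the 151 probes were named through their RefSeq accession. Ces1d is listed as Ces3, and Cyp2j7 and Cyp2j8 are listed as pseudogenes. Among all 151 probe sequences, 5 pairs of probes of different genes shared a run of at least 20 bases. Only 1 of these pairs held a detected probe, Cyp4a10 with Cyp4a31 (34 bases), so the signal of Cyp4a10 may include transcripts of Cyp4a31. None of the 6 genes that met the rule was in such a pair. Transcripts that match a probe but have no probe of their own among the members were not searched.

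Detection was uneven across the families. A probe counted as detected when the scanner software found its spot and rated it well above background in 5 or more mice of the same group, a rule met by 42.4% of all 55681 probes. All 4 epoxide hydrolases (Ephx1, Ephx2, Ephx3 and Ephx4) and all 3 paraoxonases (Pon1, Pon2 and Pon3) were detected. Of the flavin monooxygenases 3 of 6 were detected, and Fmo4, Fmo6 and Fmo9 were above background on no array. Of the carboxylesterases named Ces in the files, 1 of 7 was detected, Ces1d. Of the P450 genes 36 of 98 were detected. Taking all members, 43 probes were detected on all 11 arrays and 69 probes were above background on none. For 47 genes no probe was above background on any array. Counting probes above background whether or not the spot was found gave 58 probes of 50 genes. The 3 genes added, Cyp20a1, Cyp2c38 and Cyp4a31, were above background on all 11 arrays, with spots found on 7, 6 and 6 of them. Cyp20a1, a P450 without an established substrate, ranged from 7.95 to 8.40 on the log2 scale with nitrate and from 7.98 to 8.24 in the controls. Cyp2c38, of the drug and fatty acid oxidizing Cyp2c family, was 5.44 to 5.99 with nitrate and 4.77 to 5.65 in the controls. It met the call rule at 0.44 ± 0.16 (SE). With this wider detection 7 genes and 9 probes met the call rule, against 9.14% of probes.

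**Figure D1:**
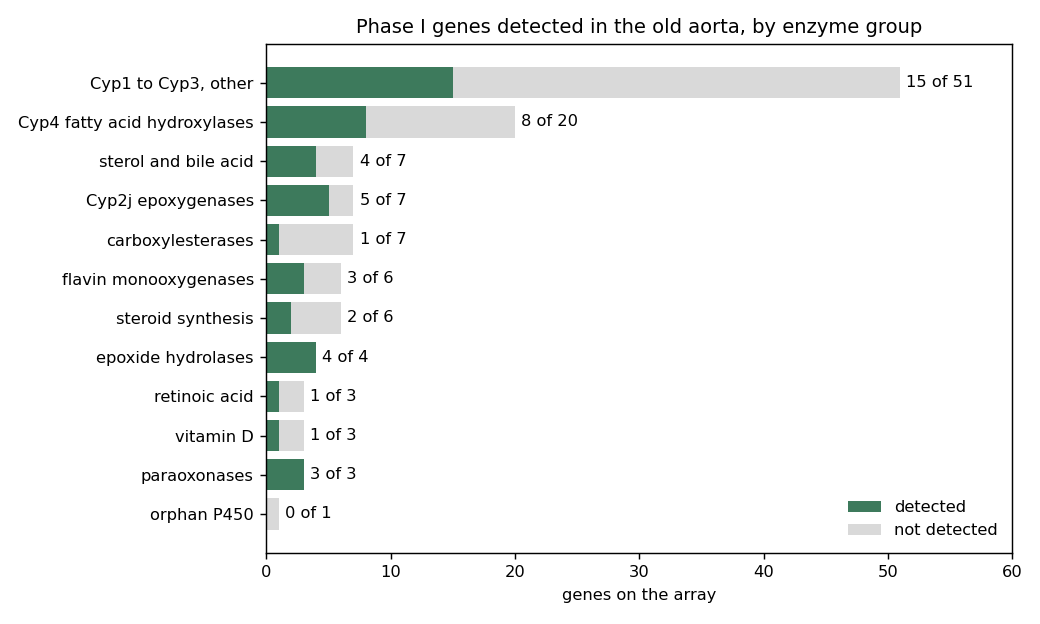
Number of phase I genes on the array in each enzyme group (horizontal axis, genes), split into detected (green) and not detected (grey). All 4 epoxide hydrolases and all 3 paraoxonases were detected, against 1 of 7 carboxylesterases, 15 of 51 other P450 genes of families 1 to 3 and 0 of 1 orphan P450, Cyp20a1, which was above background on all 11 arrays but not found by the scanner software on enough of them.

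Epoxide hydrolases open epoxide rings with water. Ephx4, a member of the family whose substrate is not established, was brighter with nitrate. Its log2 signal in the nitrate treated mice was 4.81, 5.30, 5.10, 4.92 and 4.95, and in the controls it ranged from 3.89 to 4.55 with a median of 4.24. Every nitrate value was above every control value. The difference was 0.80 ± 0.14 (log2 units, SE, n = 5 and 6), a fold change of 1.74. The signal was dim, with Ephx4 above background in 5 of 5 nitrate treated mice and 3 of 6 controls, so it left the comparison when detection on all 11 arrays was required. With normexp background correction and an offset of 50, which shrinks dim differences, the difference was 0.20 and below the 1.2-fold limit, and with an offset of 16 it was 0.48.

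Ephx1 encodes microsomal epoxide hydrolase, which converts epoxides of foreign compounds to diols. Its log2 signal with nitrate was 14.22, 14.39, 14.23, 14.34 and 14.14, against 13.44 to 14.04 with a median of 13.90 in the controls, and the groups did not overlap. The difference was 0.41 ± 0.11 (SE), with a limma adjusted p value of 0.161. A two-sided exact permutation test over the 462 divisions of the mice, which cannot go below 0.00216, gave p = 0.00433. The other Ephx1 probe was also called higher, at 0.33 ± 0.11 (SE), with overlapping groups. Ephx1 is among the genes that the study listed from this experiment.

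Ephx2, the soluble epoxide hydrolase that degrades arachidonic acid epoxides, ranged from 11.28 to 12.06 with nitrate and from 11.52 to 12.27 in the controls. Its difference was -0.25 ± 0.17 (SE; limma adjusted p = 0.535), and that of Ephx3 was -0.10 ± 0.07 (SE; limma adjusted p = 0.542). The groups overlapped in both genes. Within the family, Ephx1 was called and Ephx2 and Ephx3 were not.

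Flavin monooxygenases oxidize nitrogen and sulfur atoms of drugs and dietary amines. Fmo1, an enzyme of broad drug specificity that in mice is expressed mainly in liver, kidney and lung, was lower. Its log2 signal was 10.68, 10.83, 10.93, 11.10 and 10.87 with nitrate, against 10.88 to 11.68 with a median of 11.19 in the controls. The groups overlapped, since nitrate treated mice 3 and 4 were above the lowest control. The difference was -0.35 ± 0.13 (SE), with a limma adjusted p value of 0.282 and an exact permutation p of 0.0281, and the other Fmo1 probe gave -0.38 ± 0.16 (SE). This call rested on single arrays. Without control 1 the difference was -0.26, below the 1.2-fold limit, and without nitrate treated mouse 1 it was -0.30 with a limma P value of 0.0532.

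Fmo2, the flavin monooxygenase typical of lung, ranged from 12.76 to 13.33 with nitrate and from 12.39 to 13.09 in the controls, a difference of 0.20 ± 0.13 (SE; limma adjusted p = 0.499). Fmo5 differed by -0.07 ± 0.07 (SE; limma adjusted p = 0.684).

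**Figure D2:**
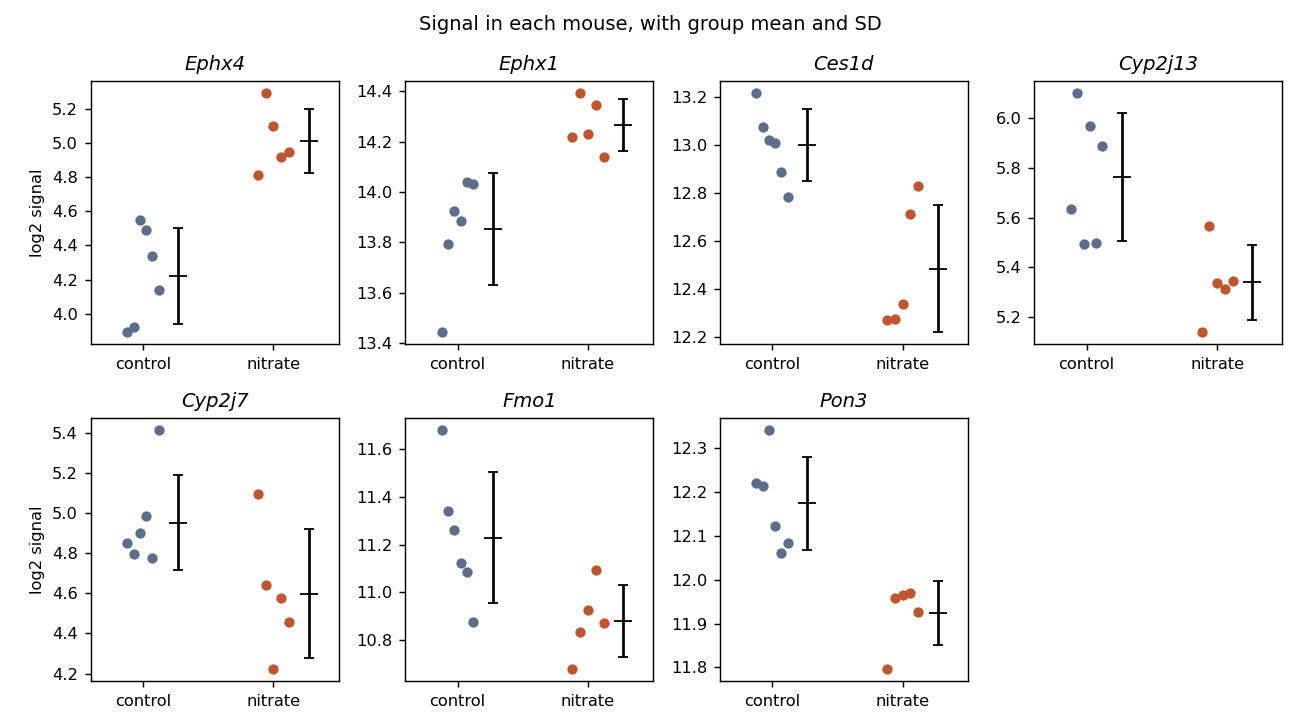
Quantile normalized log2 signal (vertical axes, a separate scale for each gene) of each control mouse (blue) and nitrate treated mouse (orange) for the 6 genes that met the call rule and Pon3, with black bars for the group mean ± SD. Groups are apart in Ephx4, Ephx1 and Pon3 and overlap in Ces1d, Cyp2j13, Cyp2j7 and Fmo1.

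Paraoxonases hydrolyze lactones and protect lipids from oxidation, Pon1 and Pon3 on high density lipoprotein and Pon2 inside cells. None of the 3 was called. Pon3 came closest: its log2 signal was 11.80, 11.96, 11.96, 11.97 and 11.93 with nitrate, and 12.06 to 12.34 with a median of 12.17 in the controls. Every nitrate value was below every control value, yet the fold change of 1.19 fell just short of the limit. The difference was -0.25 ± 0.07 (SE), with a limma adjusted p value of 0.182 and an exact permutation p of 0.00433. Without control 5 or 6 Pon3 was called, at -0.27 in both cases. Pon3 is also among the genes that the study listed from this experiment.

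Pon2 gave 0.18 ± 0.08 (SE; limma adjusted p = 0.332) by the probe with the higher mean signal and -0.11 ± 0.11 (SE) by its other probe, so the 2 probes disagreed in sign. Pon1 ranged from 9.54 to 9.77 with nitrate and from 9.32 to 9.95 in the controls, a difference of -0.02 ± 0.11 (SE; limma adjusted p = 0.968).

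Carboxylesterases split ester bonds of drugs and lipids, and Ces1d is known as a triglyceride hydrolase of adipocytes and liver. The log2 signal of Ces1d was 12.27, 12.27, 12.34, 12.71 and 12.83 with nitrate, and 12.78 to 13.21 with a median of 13.01 in the controls. Of the nitrate treated mice, 4 lay below all controls, and mouse 5 lay above the lowest control. The difference was -0.51 ± 0.12 (SE), a fold change of 1.43, with a limma adjusted p value of 0.141 and an exact permutation p of 0.00433. Ces1d was called under each alternative except the adjusted P value, and with each array left out. It too is among the genes that the study listed from this experiment, so its direction is not independent evidence.

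Adipocyte markers, like Ces1d, were lower on average with nitrate. Of 12 adipocyte markers, all were detected and 7 were called lower with nitrate, among them Adipoq at -0.49 ± 0.11 (SE) and Pparg at -0.57 ± 0.13 (SE), and the median difference of the 12 was -0.31. The log2 of their summed signal was 18.38 to 18.80 with nitrate and 18.79 to 19.16 in the controls. Fewer adipocytes and less RNA per adipocyte cannot be told apart in whole tissue, and the part of these markers in the differences of the phase I genes was not tested. Of 9 hepatocyte markers, 4 were detected, and Alb, Apoa1, Ttr, Fgb and Cps1 were not. Of the 4, Ahsg, Apoa2 and Serpina1a were called higher. Of 6 brown adipocyte markers all were detected and Cidea was called lower, at -0.52 ± 0.16 (SE). All 6 heart muscle markers were detected and none was called. Their median difference was 0.93, with 5 of the 6 positive. The log2 of their summed signal varied widely, from 11.23 to 15.75 with nitrate and from 10.76 to 15.10 in the controls. The highest sums were in nitrate treated mouse 4 and control 1. The markers of smooth muscle, endothelium, macrophages and fibroblasts, 5 of each, were all detected, and none was called.

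**Figure D3:**
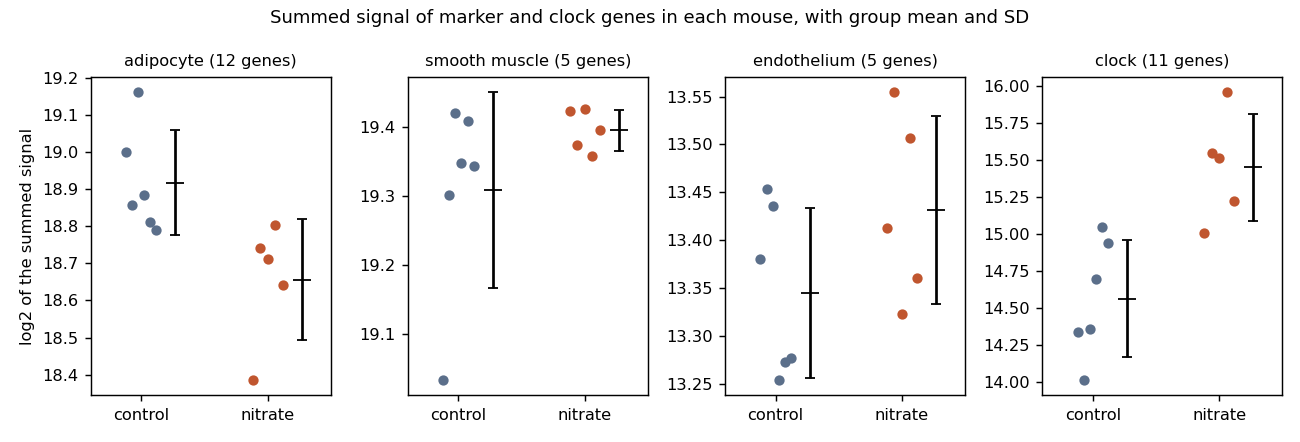
The log2 of the summed signal (vertical axes) of the adipocyte, smooth muscle, endothelium and clock genes in each control mouse (blue) and nitrate treated mouse (orange), with black bars for the group mean ± SD. The adipocyte sum is 18.38 to 18.80 with nitrate and 18.79 to 19.16 in the controls, and the clock sum is 15.002 to 15.96 with nitrate and 14.01 to 15.04 in the controls.

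Among the P450 enzymes, Cyp2j13 was called. It belongs to the Cyp2j family, which forms epoxides of polyunsaturated fatty acids. Of the 7 Cyp2j genes 5 were detected. Apart from Cyp2j7, whose sign the detection rule favoured, 4 of 4 had a negative difference with a median of -0.24, against 45.4% negative over all detected genes. Cyp2j13 was 5.14, 5.57, 5.34, 5.31 and 5.34 with nitrate, and 5.49 to 6.10 with a median of 5.76 in the controls. Only nitrate treated mouse 2 reached the range of the controls. The difference was -0.42 ± 0.12 (SE), with a limma adjusted p value of 0.202 and an exact permutation p of 0.0173. With normexp background correction it was -0.17 and below the fold limit.

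Cyp2j7 was 5.10, 4.64, 4.22, 4.58 and 4.46 with nitrate and 4.77 to 5.41 with a median of 4.87 in the controls. Nitrate treated mouse 1 was above 5 of the 6 controls. The difference was -0.35 ± 0.15 (SE). The probe was above background and found in all 6 controls but 3 of 5 nitrate treated mice, so it too left the comparison when detection on all 11 arrays was required. With 1 mouse left out the difference lay between -0.48 (without nitrate treated mouse 1) and -0.26 (without nitrate treated mouse 3), and with normexp it was -0.12.

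The other Cyp2j genes missed the fold limit. Cyp2j8 was 7.45, 7.45, 7.50, 7.49 and 7.47 with nitrate, all below the 7.54 to 7.98 of the controls, a difference of -0.23 ± 0.08 (SE; limma adjusted p = 0.248). Cyp2j6 differed by -0.24 ± 0.10 (SE; limma adjusted p = 0.318) and Cyp2j9 by -0.07 ± 0.11 (SE; limma adjusted p = 0.794). The 5 genes lie close together on chromosome 4.

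Of the Cyp4 genes, 8 of 20 were detected and none was called. These enzymes add a hydroxyl group to the end of fatty acid chains, and Cyp4a and Cyp4f members make 20-HETE in many tissues. Cyp4v3 was 9.52 to 9.62 with nitrate and 9.67 to 9.94 in the controls, with no overlap, but its difference of -0.17 ± 0.07 (SE; limma adjusted p = 0.290) was under the fold limit. With slide as a block Cyp4b1 was called lower, at -0.28 ± 0.11 (SE). Cyp4f13 differed by -0.17 ± 0.07 (SE; limma adjusted p = 0.322). Cyp4a10, whose human relatives supply 20-HETE, differed by 0.02 ± 0.10 (SE), and Cyp4a12a, Cyp4a12b and Cyp4a14 were above background on no array.

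Of the other P450 genes of families 1 to 3, which hold the main drug and toxin oxidizing enzymes, 15 of 51 were detected and none was called. Cyp2e1, the ethanol and solvent oxidizing P450, was 13.62 to 14.92 with nitrate and 13.93 to 14.99 in the controls, a difference of -0.20 ± 0.22 (SE; limma adjusted p = 0.717). Leaving out 1 mouse moved it from -0.37 (without nitrate treated mouse 2) to -0.045 (without nitrate treated mouse 1). Cyp1b1, a P450 of vessel wall and other tissues outside the liver that is induced through the aryl hydrocarbon receptor, differed by 0.04 ± 0.10 (SE; limma adjusted p = 0.892), and Cyp1a1, the classical target of that receptor, was not detected. Cyp2c37 ranged from 5.99 to 7.49 with nitrate and from 5.95 to 7.27 in the controls, a difference of 0.35 ± 0.28 (SE; limma adjusted p = 0.599). With slide as a block Cyp2c37 was called higher, at 0.46 ± 0.14 (SE), and Cyp2d11 and Cyp2d12 were called lower, at -0.29 ± 0.12 and -0.47 ± 0.20 (SE). Cyp2d12 had the largest difference of any detected phase I gene not called, -0.42 ± 0.21 (SE; limma adjusted p = 0.380). In Cyp2d11, Cyp2d12 and Cyp2d22 control 1 was the highest of all mice, at 10.42, 8.15 and 7.64.

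P450 enzymes of steroid, sterol and vitamin metabolism were few, and none was called. Of 6 genes of steroid synthesis, Cyp17a1 (0.0049 ± 0.16, SE) and Cyp21a1 (0.26 ± 0.15, SE; limma adjusted p = 0.438) were detected. With slide as a block Cyp21a1 was called higher, at 0.30 ± 0.13 (SE). Cyp11a1, which starts all steroid synthesis, was above background on no array, and of 5 adrenal cortex markers 1 was detected. Of 7 sterol and bile acid genes, Cyp27a1, Cyp39a1, Cyp46a1 and Cyp51 were detected, with differences from -0.34 (Cyp51, SE 0.21) to 0.11 (Cyp46a1, SE 0.17). Cyp7a1, the rate-limiting enzyme of bile acid synthesis, was above background on no array. The vitamin D 25-hydroxylase Cyp2r1 differed by -0.01 ± 0.15 (SE), and Cyp26b1, which degrades retinoic acid, by 0.08 ± 0.17 (SE).

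**Figure D4:**
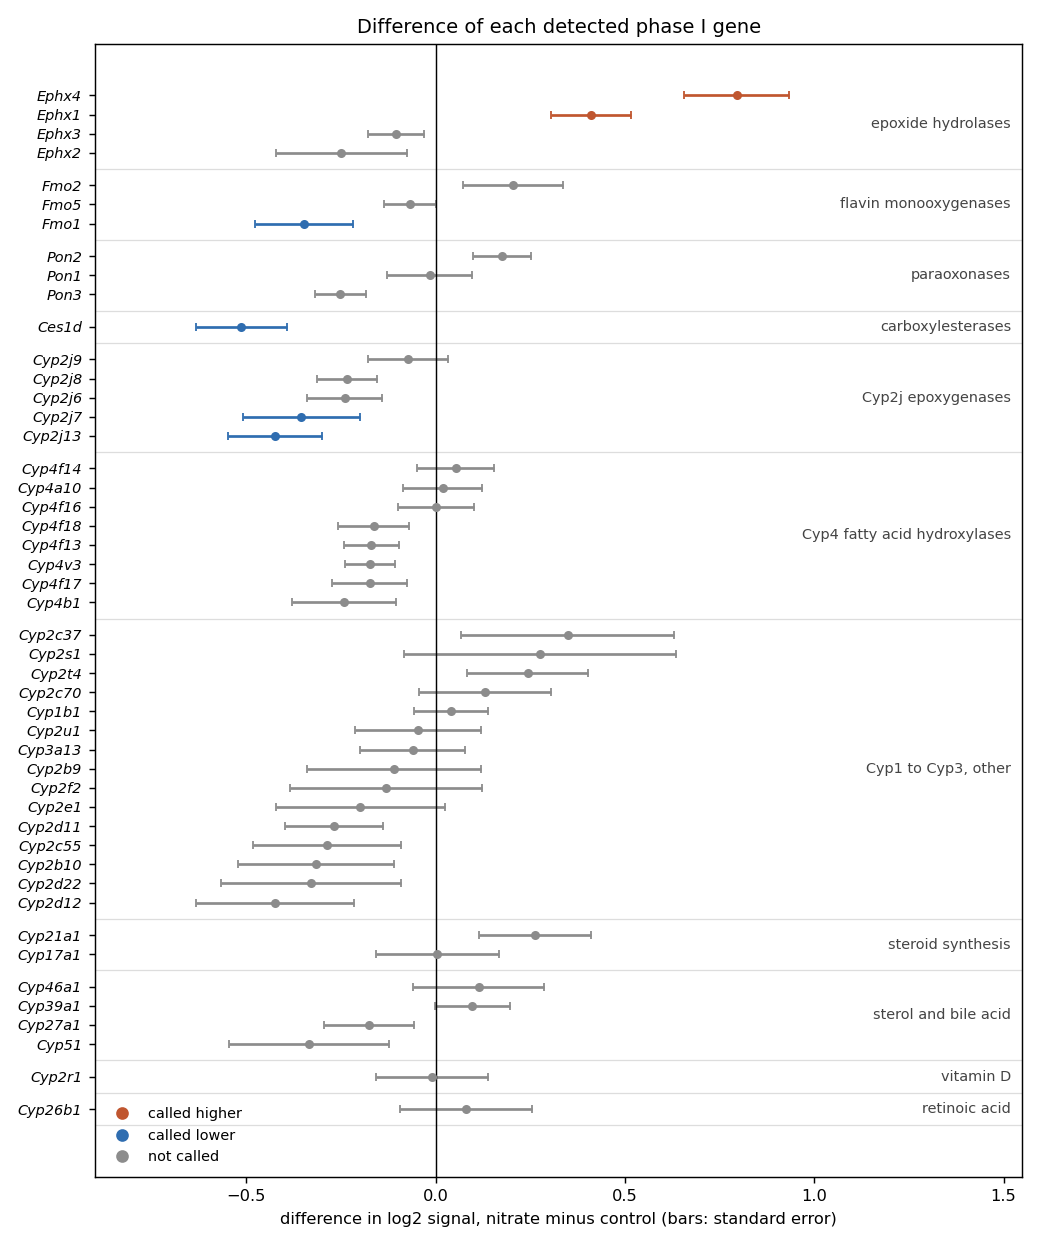
Difference in log2 signal, nitrate minus control (horizontal axis), with its standard error for each of the 47 detected phase I genes, grouped by enzyme role and coloured by call. The genes that met the call rule lie between -0.51 (Ces1d) and 0.80 (Ephx4), and 30 of the 47 genes lie below 0.

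The 7 genes singled out above were also set side by side within slides, since each of the 3 slides held both groups and slides 1 and 2 were scanned on another day than slide 3. They were chosen for their difference over these same arrays, so a like sign within slides is no separate test of it. Ephx4 was higher within each slide, by 1.15, 0.79 and 0.49. Ephx1 was higher by 0.69, 0.27 and 0.26. Ces1d was lower within each slide, at -0.87, -0.56 and -0.18, and Pon3 at -0.34, -0.14 and -0.25. Cyp2j13 was at -0.51, -0.59 and -0.17 and Fmo1 at -0.76, -0.07 and -0.19, whereas Cyp2j7 had opposite signs, at 0.05, -0.98 and -0.32. The value of slide 1 was the one farthest from 0 in 5 of these 7 genes. Slide 2 held a single nitrate array.

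**Figure D5:**
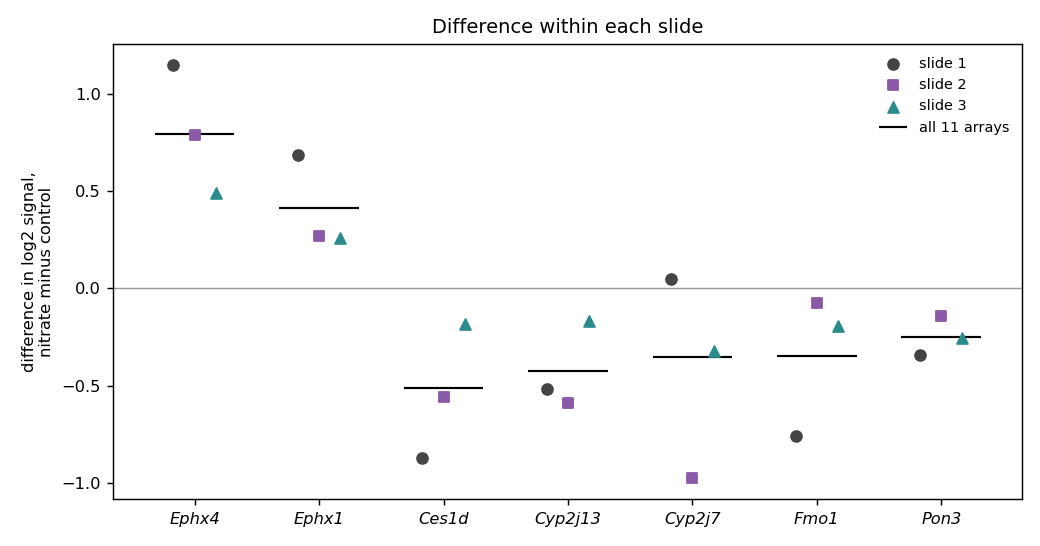
Difference in log2 signal, nitrate minus control (vertical axis), within slide 1 (circles), slide 2 (squares) and slide 3 (triangles), with a black line for the difference over all 11 arrays. The values of a gene spread widely between slides, from -0.87 to -0.18 in Ces1d and from 0.49 to 1.15 in Ephx4.

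Several properties differed between the arrays or between the groups. On average, the array of control 1 was the least correlated with the others, 0.985 against 0.990 to 0.993, and this mouse was the highest control in 17 of the 47 genes. Each slide carried its control arrays in column 3 and its nitrate arrays in other columns, so slide column and treatment cannot be told apart. Without control 1, 6 genes and 7 probes were called, against 6.76% of all detected probes, with Cyp21a1 in place of Fmo1. Clock genes also differed: of 12, 11 were detected and 8 were called higher, among them Dbp at 1.22 ± 0.28 (SE) and Tef at 0.74 ± 0.16 (SE), and 2 were called lower, Arntl and Npas2. The log2 of their summed signal was 15.002 to 15.96 with nitrate and 14.01 to 15.04 in the controls. The time of day at which tissue was taken is not given in the sources used here, and the part of these genes in the differences of the phase I genes was not tested.

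Dbp, Tef and Hlf are transcription factors that bind a D-box and are known to drive detoxification genes in liver and kidney, and so the RefSeq promoters of the enzymes (build GRCm38.p6, 250 bases before each start) were searched for their motif. Of the 118 genes 88 had an entry, and of the 47 detected genes 35, with 41 promoters. The D-box TTATGTAA, read on both strands, was in 1 of these 41, against 0.819% of 32851 promoters, and the match lay at the downstream start of Ephx4. The xenobiotic response element core GCGTG was in 12 of 41 promoters against 28.2% of all, the antioxidant response element core TGACNNNGC in 2 against 10.2%, and the E-box CACGTG in 2 against 6.02%. No entry was found for Fmo1, Ces1d or Cyp2j7, and the promoter of Ephx1 held none of the 4 motifs. Both promoters of Ephx4 and 1 of Cyp2j13 are shown because they belong to genes that met the call rule and hold a match, which is in capitals (the D-box in the downstream promoter of Ephx4, the xenobiotic response element core in the other 2). They lie at chr5:107405511-107405760 and chr5:107403263-107403512 on the plus strand and at chr4:96077541-96077790 on the minus strand. A match is only a run of letters and not a bound site.
Ephx4 downstream: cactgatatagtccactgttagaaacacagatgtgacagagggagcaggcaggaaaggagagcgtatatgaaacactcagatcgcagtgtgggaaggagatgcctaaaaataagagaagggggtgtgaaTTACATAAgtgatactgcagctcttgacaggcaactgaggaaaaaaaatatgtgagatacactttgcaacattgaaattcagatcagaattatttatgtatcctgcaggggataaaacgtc
Ephx4 upstream: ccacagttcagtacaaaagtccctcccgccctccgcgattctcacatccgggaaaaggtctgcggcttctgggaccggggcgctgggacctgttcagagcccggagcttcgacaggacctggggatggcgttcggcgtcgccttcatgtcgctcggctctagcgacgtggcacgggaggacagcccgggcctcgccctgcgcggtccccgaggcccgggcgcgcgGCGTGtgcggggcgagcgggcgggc
Cyp2j13: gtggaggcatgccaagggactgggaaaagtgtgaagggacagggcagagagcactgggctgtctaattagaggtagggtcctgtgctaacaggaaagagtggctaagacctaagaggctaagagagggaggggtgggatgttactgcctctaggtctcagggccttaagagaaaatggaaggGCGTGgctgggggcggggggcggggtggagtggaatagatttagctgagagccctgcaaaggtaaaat

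The other genes of phase I metabolism were taken from lists of partners and parallel enzymes. The P450 enzymes draw electrons from Por and cytochrome b5, and of 13 electron donors and heme handling genes 12 were detected. Por differed by 0.04. Hmox1, which degrades heme, was called higher at 0.30 ± 0.09 (SE) and Cyb5b, the mitochondrial outer membrane cytochrome b5, lower at -0.36 ± 0.15 (SE). Without nitrate treated mouse 2, Hmox1 stood at 0.26, under the fold limit. Cyb5b was not called without control 1 or 3 or nitrate treated mouse 4 or 5, at -0.25, -0.31, -0.33 and -0.36, or with 75th percentile scaling, at -0.36.

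Of 18 xenobiotic receptors and partners 12 were detected. Nfe2l2, the oxidative stress regulator NRF2, was called higher at 0.28 ± 0.09 (SE; limma adjusted p = 0.245), and Ppara and Rxra, a fatty acid receptor and its partner, lower at -0.45 ± 0.13 (SE; limma adjusted p = 0.192) and -0.34 ± 0.11 (SE; limma adjusted p = 0.229). The aryl hydrocarbon receptor Ahr differed by -0.21. The call of Nfe2l2 was lost without control 1 or 2 or nitrate treated mouse 4, at 0.24, 0.26 and 0.22, and that of Rxra with normexp, at -0.19.

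Of 48 other oxidation and reduction enzymes 42 were detected, 2 were called higher and 10 lower, against 4.27% and 4.62% of all detected genes. Because this list was chosen with earlier results of these data known, its comparisons with all detected genes are descriptive only. The 2 higher were Akr1c14 (0.32 ± 0.08, SE), a hydroxysteroid reductase, and Nqo1 (0.29 ± 0.13, SE), a quinone reductase. Of 19 aldehyde dehydrogenases, all detected, 6 were called lower and 0 higher, a grouping made after the values were seen. They ran from Aldh4a1 (-0.35 ± 0.12, SE) to Aldh1a7 (-0.69 ± 0.26, SE), with Aldh1l1, Aldh5a1, Aldh6a1 and Aldh9a1 between them. The other lower genes were the cortisone reductase Hsd11b1 (-0.64 ± 0.23, SE), Akr7a5 (-0.38 ± 0.11, SE), Dhrs4 (-0.34 ± 0.13, SE) and the alcohol dehydrogenase Adh1 (-0.31 ± 0.14, SE). In 3 of the 42, Akr1c14, Akr7a5 and Aldh9a1, the groups did not overlap, against 2.94% of all detected genes.

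Some of these calls rested on single arrays or on the processing. Nqo1 stood between 0.20 and 0.29 and was not called without control 1, 2 or 4 or nitrate treated mouse 1, 3 or 4. Adh1 stood between -0.32 and -0.22 and was not called without control 1, 2 or 3 or nitrate treated mouse 1, 2 or 3, or with 75th percentile scaling, at -0.31. Akr1c14 was under the fold limit with normexp, at 0.26. Dhrs4 was lost without control 1 or nitrate treated mouse 1 or 2, at -0.25, -0.31 and -0.28, and Aldh1a7 without nitrate treated mouse 1, at -0.59.

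Of 13 other hydrolases 10 were detected. Nceh1, a cholesteryl ester hydrolase, was called higher at 0.34 ± 0.09 (SE). Ces1f, a carboxylesterase that the files list under another name, was called lower at -0.65 ± 0.20 (SE; limma adjusted p = 0.213), with 9.03, 10.25, 9.76, 9.88 and 9.89 in the nitrate treated mice against 10.12 to 10.90 in the controls. Lipe, the hormone-sensitive lipase and one of the adipocyte markers, was lower at -0.51 ± 0.20 (SE), and its call was lost without nitrate treated mouse 1 or 4, at -0.47 in both. The prostacyclin and thromboxane synthases Ptgis and Tbxas1, P450 enzymes with other names, differed by 0.19 and -0.32 and were not called. The median difference was -0.05 for the electron donors, -0.10 for the receptors, -0.02 for the oxidation and reduction enzymes and -0.13 for the hydrolases. In all, 20 of the 78 detected genes on these lists were called (25.6%), against 8.89% of all detected genes, and none had an adjusted P value under 0.05. The lists were chosen with earlier results of these data known. They hold Ces1f, which the study listed from this experiment, and the adipocyte marker Lipe. The share called is therefore descriptive only, and nothing is drawn from its excess over that of all detected genes.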

How the data were processed

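The authors hybridized RNA of each mouse to its own one-color Agilent array. The deposited scanner files (Feature Extraction 10.7.1.1) hold, per spot, a background-corrected intensity that is not yet comparable between arrays, and quality flags. The deposited log2 table was quantile normalized by the authors in GeneSpring and centred on the median, and it correlated with the values used here on each array (lowest r of 0.99998).

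Processed signals under 1 were set to 1 and put on the log2 scale, without spots flagged as outliers. The mean of a probe's spots was taken, followed by quantile normalization of all 11 arrays. The number of arrays limits the precision. Differences are taken between mice, and signals were ranked across probes only to choose a gene's probe and the brightest gene of a family. Probes rated as detected in 5 or more mice of a group were tested with limma 3.58.1 (R 4.3.3, lmFit and eBayes) over the 11 arrays without covariates. As in the study's methods, a call needed P under 0.05 before adjustment and a fold change over 1.2. Adjusted P values cover the detected probes. Two-sided exact permutation tests of single genes were not adjusted.

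A gene's value is that of its brightest detected probe. Names were updated through a RefSeq table of GRCm38 by accession, symbol or synonym. Named were all called genes, the brightest gene of each family, the detected genes of the smaller roles, and 4 genes the study listed. Other genes given with values were named beyond this rule, after their values were seen. The members and lists were chosen with earlier results of these data known. The fit was tested on simulated data. Alternatives covered scaling, background correction, an added offset of 16, the authors' table, flagged spots, blocks for slide and replicate number, the prior variance, detection and call rules, the choice of probe, and each mouse left out. Some items that match the rule are not reported here and were left out of all counts of members. Proteins and enzyme activity were not analysed here.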

Additional observations from a re-analysis of the deposited data

Results flagged for a closer look

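In 5 of 74 groups of mice over the 37 genes named by rule, 1 mouse lay far from the rest by Dixon's ratio, its gap to the nearest other mouse divided by the range of the group; chance alone would give about 3.7. Cyp2j7 was highest in control 6, with a ratio of 0.673, and without that mouse its difference was -0.26. Pon3 was lowest in nitrate treated mouse 1, with a ratio of 0.744, and the other 4 nitrate treated mice lay within 11.93 to 11.97. Cyp39a1, a P450 of sterol and bile acid metabolism, was highest in control 5, with a ratio of 0.804. Aldh9a1 and Dhrs4 were highest in control 1, with ratios of 0.672 and 0.704. Without control 1 their differences were -0.29 and -0.25, and that of Dhrs4 was then under the fold limit.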

How the results depend on the processing

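Of the 37 genes named by rule, 34 kept the sign of their difference under each alternative fitted for them and with each mouse left out. The exceptions, Cyp17a1 (-0.073 to 0.15), Cyp26b1 (-0.00059 to 0.23) and Cyp2r1 (-0.090 to 0.091), were not called. The same-sign statement leaves out the changed detection rules. Of the phase I genes, 6 were called in the values reported, from 8 probes, against 9.00% of all detected probes. Ephx4 and Cyp2j7, whose differences the detection rule favoured, enter these counts, and nothing is drawn from the gain or loss of their calls. With normexp background correction 3 genes (Ces1d, Ephx1 and Fmo1) and 5 probes were called, against 5.12% of all detected probes. With slide as a block 10 genes were called, against 10.3% of all detected genes, and 12 probes, against 10.4% of all detected probes. Cyp2j7 was lost and Cyp21a1, Cyp2c37, Cyp2d11, Cyp2d12 and Cyp4b1 were gained. With an offset of 16, 5 genes and 7 probes were called, against 7.93% of all detected probes, without Cyp2j7. With a trended robust prior variance Cyp2d11 took the place of Cyp2j7. With an adjusted P value under 0.05, 0 probes, 0 phase I genes and 0 genes of the other lists were called. With no limit on the fold change 14 probes, 12 phase I genes and 23 genes of the other lists were called, against 14.4% of all detected probes. With no detection filter all 151 probes entered, and 7 genes and 10 probes were called, against 5.79% of all probes on the array. Cyp2c38 and Cyp2w1 were gained and Cyp2j7 was lost. Without the need for a found spot 58 probes entered, and 7 genes and 9 probes were called, with Cyp2c38, against 9.14% of probes. Leaving out 1 mouse gave 5 to 9 phase I genes, 7 to 11 probes and 15 to 25 genes of the other lists, against 6, 8 and 20. The share of all detected probes that were called moved as well, from 6.76% (without control 1) to 10.3% (without control 6). Calls were gained without control 1 or nitrate treated mouse 1 (Cyp21a1), control 2 (Cyp2j6 and Cyp51), control 5 (Cyp2j8 and Pon3), control 6 (Cyp2d11, Cyp2d12 and Pon3), and nitrate treated mouse 4 (Cyp2j6) or 5 (Cyp2c37, Cyp2j6, Cyp2t4 and Cyp4b1). Fmo1 was lost without control 1 or nitrate treated mouse 1. Cyp2j7 was lost without control 3, 4 or 6 or nitrate treated mouse 2, 3, 4 or 5. Ces1d and Ephx1 were called under all alternatives but the adjusted P value. The median difference over all detected probes lay between 0.010 and 0.015 under each scaling.

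The replicate numbers did not pair the mice, since the deviations of same-numbered mice correlated between -0.14 and 0.18. With the replicate block 11 phase I genes and 13 probes were called, against 10.3% of all detected probes. Cyp2j7 was lost, Pon3, Cyp2d11, Cyp2d12, Cyp2d22, Cyp2s1 and Cyp2t4 were gained, and Adh1, Dhrs4 and Nqo1 were not called at -0.36, -0.35 and 0.33. Dim probes are limited by signal over background, as in Ephx4, Cyp2j7 and Cyp2j13, whose differences shrank with normexp.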
